A study of Sus scrofa with 6 samples.

Results

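The genes described here are the mitochondrial carriers of the SLC25 family, chosen by symbol alone: every row of the pig gene count table whose symbol starts with SLC25A, or is UCP1, UCP2, UCP3, MTCH1 or MTCH2. A row was found for 44 such genes among the 17670 of the table, and 39 of the 44 were among the 12701 genes with enough reads to be tested. No row carried the symbol SLC25A2, SLC25A18, SLC25A29, SLC25A30, SLC25A37, SLC25A51, SLC25A52, UCP1 or MTCH2, so these genes were not analysed here. Only 13141 of the 17670 rows had a symbol, and members could be among the rest. The libraries came from immature Sertoli cells of pig testis at 80 to 90 days of gestation, grown in serum-containing medium. In the AA2P group, 3 libraries were made from cells given L-ascorbic acid 2-phosphate, a stable form of vitamin C, at 250 µM after 6 h of culture, and 3 control libraries came from cells of the same kind without it. The length of the treatment is not given in the labels, and nothing in them says that replicates are separate animals or cultures, so the p-values cover only the scatter of these libraries, possibly a technical one. The comparison asked how the carriers' transcripts differed between the groups.

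Carriers of this family sit mostly in the inner mitochondrial membrane and exchange nucleotides, phosphate, carboxylates, amino acids and cofactors between cytosol and matrix, and a few sit in the outer membrane or in peroxisomes. Nuclear genes encode them, and their proteins are imported from the cytosol by a dedicated translocase. Sertoli cells, which nourish germ cells, are known for turning glucose into lactate and for burning fatty acids in their mitochondria.

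Library totals ran from 18747307 to 23521291 counts, and 3 counts, the limit set by a count of 0, correspond to 0.123 to 0.165 CPM, for counting error only. Levels are in CPM, counts normalised to a common library size, after TMM scaling, which sets the bulk of genes equal between libraries. Fold changes are AA2P over control. Scaling by library totals instead adds 0.17 to the median log2 fold change of all genes, so all changes are relative to the TMM scaling. Of 15 Sertoli cell markers 10 had a row, and SOX9, AMH, WT1 and VIM were read in these cells, while DHH, INHA and NR5A1 were under 1 CPM in each library. Of the 7 tested 5 fell, SOX9 from 11.6 to 2.22 CPM in the group means, and TF rose from 0.238 to 2.91 CPM. The list summed to 9994 to 10524 CPM in controls and 3995 to 4939 CPM with AA2P, nearly all of it VIM. Without VIM it summed to 449.6 to 478 and 261 to 317 CPM, an alternative chosen after seeing the data. In the list of kidney or mesonephric tubule markers 14 of 16 had a row, and of the 13 tested 10 rose, and KRT8, EPCAM and EMX2 fell. Over all tested genes 26.0% rose and 26.1% fell. The summed level of that list was 1493 to 1645 CPM in controls and 1947 to 2318 CPM with AA2P, of which KRT8, a general epithelial keratin, made 1123 and 723 CPM in the group means. Without KRT8 the list summed to 436 to 488 CPM in controls and 1218 to 1565 CPM with AA2P, likewise computed after seeing the data. In that list LRP2 was at 80.1 and 638 CPM, HNF4A at 38.6 and 155 CPM and PAX2 at 98.7 and 134 CPM in the group means. The stromal list, nearly all COL1A2, summed to 12348 to 13226 and 8407 to 9066 CPM. The macrophage list, nearly all CD14, summed to 26.99 to 29.9 and 18.73 to 22.7 CPM. The myoid list summed to 553 to 563 and 469.6 to 538 CPM, and of its 4 tested genes 2 rose and 2 fell. TAGLN was at 375 and 307 CPM and DES at 39.1 and 8.35 CPM in the group means. MYLK was at 144 and 187 CPM and CNN1 at 0.595 and 1.18 CPM. The endothelial list, nearly all PECAM1, summed to 2.03 to 2.98 and 6.08 to 8.08 CPM. The Leydig and germ cell lists summed to at most 7.38 and 0.437 CPM in any library. PDGFRA, PDGFRB, MYH11, ACTA2, TEK, EMCN, CSF1R, CD68, CD163, CYP17A1, INSL3, DDX4, NANOS3 and SLC22A6 were under 1 CPM in each library. The part of any other cell type in the carrier values was not tested, and in bulk samples fewer cells of a type and less RNA per cell cannot be told apart.

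More carriers were higher than lower with AA2P, and most moved little. Of the 39 tested members 16 rose and 3 fell at an adjusted p of 0.05 (edgeR, quasi-likelihood F test, Benjamini-Hochberg over all tested genes), and with library totals 29 rose and 2 fell. These 19 are 48.7% of the tested members, against 52.1% of all tested genes. Of all tested genes 26.0% rose and 26.1% fell, and the 3 members that fell are 7.69% of those tested. The median log2 fold change of the members was 0.14, with quartiles of 0.01 and 0.38, against a median of 0.00 and quartiles of -0.21 and 0.24 over all tested genes. The value was above 0 in 31 members, or 79.5%, and in 49.9% of all genes.

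A change of at least 1.5-fold was called in 6 members, SLC25A45, SLC25A35, SLC25A15, SLC25A10 and SLC25A27 upward and SLC25A36 downward. They are 15.4% of the tested members, against 18.2% of all genes. In 18 members, or 46.2%, the ranges of both groups were separate, against 59.3% of all genes. Of these 18, 17 were called, and the other was SLC25A41. SLC25A21 and SLC25A46 were called although their groups overlapped. The count of members that rose was 10 without control library 3 and between 12 and 16 without each other library in turn. With AA2P library 3 left out 16 rose and 3 fell. That library was the nearest of the AA2P libraries to the control mean in 11 of the 19 called members, or 57.9%, and in 54.7% of all called genes.

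**Figure D1:**
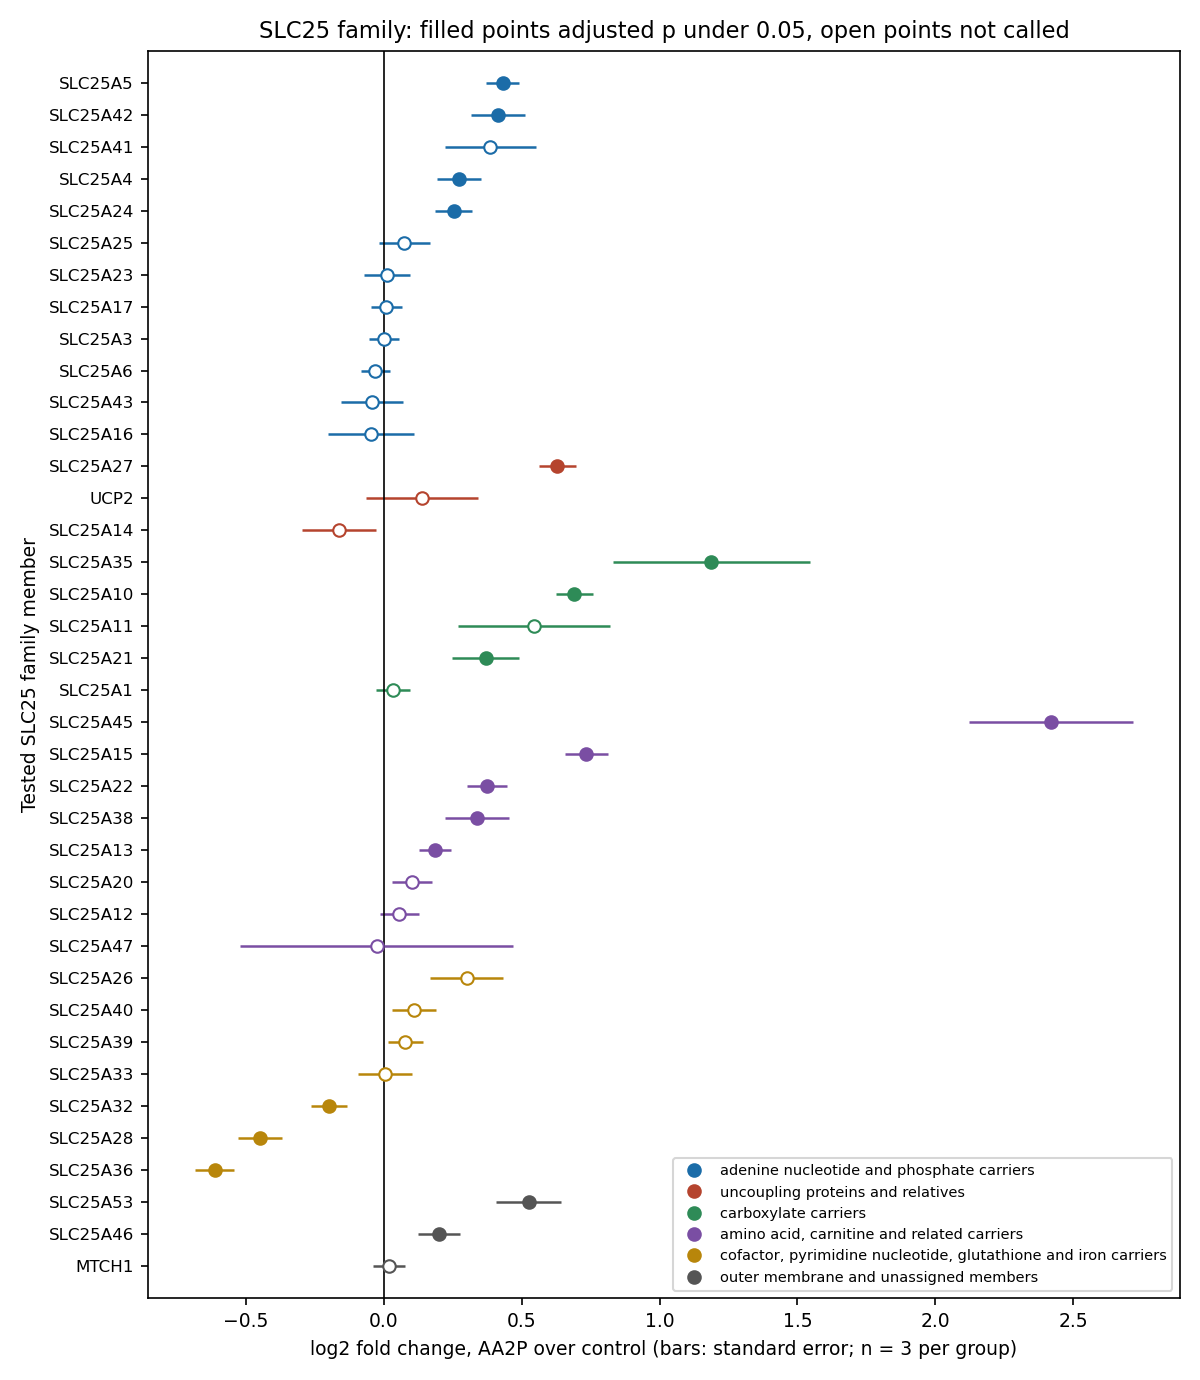
Log2 fold change of AA2P over control for 38 of the 39 tested members (horizontal axis), grouped and coloured by role, with standard errors, 3 libraries per group. Filled points passed an adjusted p of 0.05; 15 of them lie right of 0 and 3, all carriers of cofactors, iron or pyrimidine nucleotides, lie left of it.

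**Figure D2:**
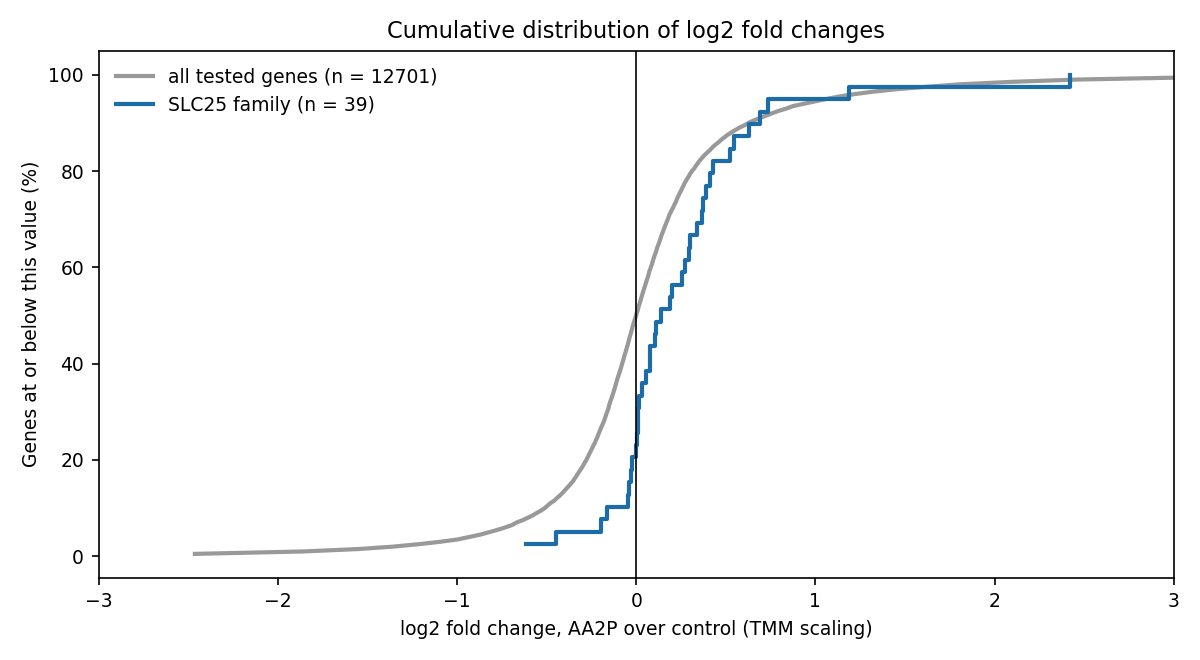
Share of genes (vertical axis, percent) at or below each log2 fold change (horizontal axis) for the 39 members and for all 12701 tested genes. The step line of the members lies below the line of all genes around 0, with medians of 0.14 and 0.00.

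Members grouped here as carriers of adenine nucleotides, phosphate or coenzyme A rose in 4 of 12 cases and fell in none. The share that rose was 33.3%, against 26.0% of all tested genes, of which 26.1% fell. Whether these shares differ was not tested, and the grouping does not establish a substrate for each member. The ADP/ATP carriers, which bring ADP into the matrix and send ATP out, are encoded by several near-identical genes. SLC25A5 was at 140.3, 140.9 and 146 CPM in control libraries 1 to 3 and at 203, 200.1 and 173 CPM in AA2P libraries 1 to 3. All AA2P libraries lay above all controls, and AA2P library 3 lay nearest to them. It rose 1.35-fold, or 0.43 ± 0.06 on the log2 scale (SE; edgeR, adjusted p = 1.6e-05).

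SLC25A4, the isoform known from heart and muscle, rose from 18.1 ± 1.06 to 21.9 ± 0.942 CPM (SD, n = 3), and this call was lost without control library 3 (edgeR, adjusted p = 0.052). SLC25A6, the member with the most reads, stood at 1128, 1131 and 1074 CPM in controls and at 1016, 1084 and 1163 CPM with AA2P. Its groups overlapped, at -0.03 ± 0.05 (SE) on the log2 scale, and with library totals the value turned to 0.14 and was called (edgeR, adjusted p = 0.029). SLC25A31, a germ cell isoform, had at most 1 count in any library.

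SLC25A5 took a larger share of the ADP/ATP carriers' read counts in each AA2P library than in any control. Its share was 10.9%, 10.9% and 11.8% in controls and 16.4%, 15.3% and 12.7% with AA2P. The share of SLC25A6 was 87.4% ± 0.468 in controls and 83.5% ± 2.02 with AA2P (SD, n = 3). The groups did not overlap for either gene, each with an exact two-sided permutation p of 0.1, the smallest that 3 against 3 libraries allow, or 0.257 after Benjamini-Hochberg adjustment over the 18 shares computed, of which those within a group sum to a fixed total. Shares are not corrected for transcript length, and reads of near-identical genes could have been split between them by the counting, which is not described.

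SLC25A24, which exchanges ATP-magnesium for phosphate under the control of calcium, rose from 84.4 ± 1.72 to 101 ± 10.7 CPM (SD, n = 3), with 110.3, 103 and 89.2 CPM in AA2P libraries 1 to 3. Its relatives were not called: SLC25A23 was at 25.9 and 26.0 CPM and SLC25A25 at 20.7 and 21.8 CPM in the control and AA2P means. SLC25A41, a neighbour of SLC25A23 in the Sscrofa11.1 annotation, was at 2.97 ± 0.346 and 3.88 ± 0.413 CPM without overlap between the groups (SD, n = 3; edgeR, adjusted p = 0.059). The shares of these 4 genes in their summed reads gave exact two-sided permutation p-values from 0.2 to 0.4. SLC25A42, the coenzyme A carrier, was at 12.98, 12.2 and 10.8 CPM in controls and at 15.1, 17.2 and 15.7 CPM with AA2P, without overlap, and rose 1.33-fold (edgeR, adjusted p = 0.0021).

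The phosphate carrier SLC25A3, which supplies phosphate for ATP synthesis, was at 358, 371 and 333 CPM in controls and at 366, 367 and 331 CPM with AA2P. The groups overlapped, and the difference was 0.00 ± 0.06 (SE) on the log2 scale. The peroxisomal carrier SLC25A17 was at 43.8 ± 0.0983 and 44.1 ± 1.26 CPM (SD, n = 3), and SLC25A16 and SLC25A43 had log2 fold changes of -0.05 and -0.04 with standard errors of 0.16 and 0.11. SLC25A43 overlaps AKAP17B in the Sscrofa11.1 annotation, and the part of shared reads was not tested.

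**Figure D3:**
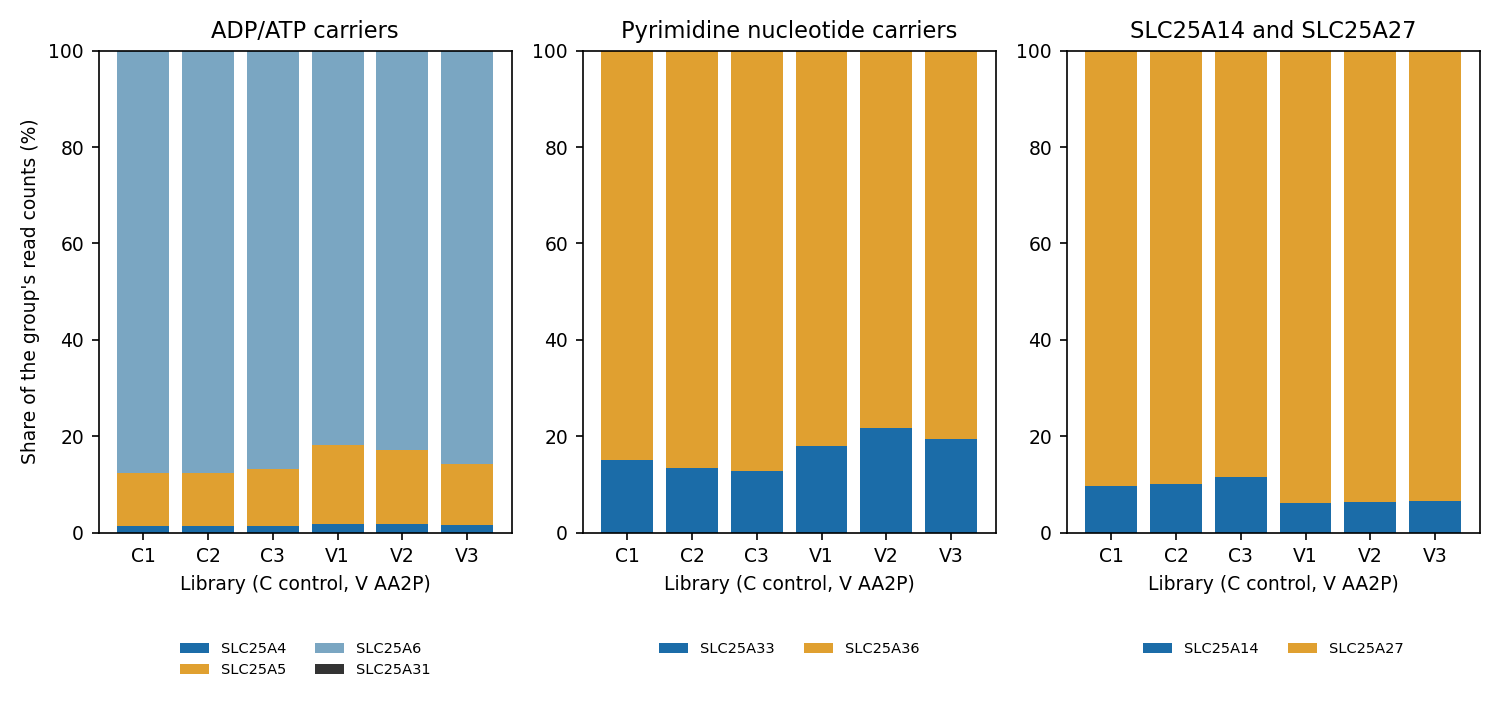
Share of the read counts of each group of related genes taken by each gene (vertical axis, percent) in control libraries C1 to C3 and AA2P libraries V1 to V3, not corrected for length. The SLC25A5 part is taller in the AA2P libraries (12.7% to 16.4%) than in controls (10.9% to 11.8%), SLC25A33 takes more of its pair with AA2P, and SLC25A14 takes less. Neither SLC25A33 nor SLC25A14 was itself called, whereas their partners SLC25A36 (lower) and SLC25A27 (higher) were, and each share depends on both genes of its pair.

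Among the uncoupling proteins, which let protons or other ions leak across the inner membrane, and their relatives, 1 of 3 tested members rose and none fell. The share that rose was 33.3%, against 26.0% of all tested genes. SLC25A27, also called UCP4 and known from brain, was at 48.7, 45.4 and 46.1 CPM in controls and at 76.0, 76.0 and 65.2 CPM with AA2P. Every AA2P library lay above every control library, library 3 by the least. The gene (ENSSSCG00000001720) rose 1.55-fold, or 0.63 ± 0.07 on the log2 scale (SE; edgeR, adjusted p = 7.7e-07).

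Its relative SLC25A14 was at 5.46 ± 0.536 CPM in controls and 4.89 ± 0.258 CPM with AA2P (SD, n = 3), and its groups overlapped. SLC25A14 took 9.69%, 10.1% and 11.6% of the reads of this pair in controls and 6.12%, 6.30% and 6.59% with AA2P, without overlap. The exact two-sided permutation p of that share was 0.1, again the smallest possible, or 0.257 after Benjamini-Hochberg adjustment over the 18 shares. UCP2 was low, at 2.57, 2.20 and 2.72 CPM in controls and 2.05, 3.42 and 2.79 CPM with AA2P, and was not called. In the Sscrofa11.1 annotation UCP2 overlaps DNAJB13, which rose from 7.50 to 21.5 CPM in the group means, and how reads in the overlap were counted is not described. UCP3 had no reads in controls and at most 2 counts in any AA2P library.

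Of the 5 tested carboxylate carriers 3 rose and none fell. The share that rose was 60%, against 26.0% of all tested genes, and whether it differs was not tested. SLC25A10, the dicarboxylate carrier that exchanges malate or succinate for phosphate, was at 49.5, 46.0 and 41.3 CPM in controls and at 70.0, 76.3 and 74.6 CPM with AA2P. The lowest AA2P library was well above the highest control library. The gene (ENSSSCG00000033620) rose 1.61-fold, or 0.69 ± 0.07 on the log2 scale (SE; edgeR, adjusted p = 2.9e-07). Its annotated position in Sscrofa11.1 overlaps 1 other protein-coding entry without a gene name, and the part of shared reads was not tested.

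SLC25A35, a carrier of uncertain substrate related to the dicarboxylate carriers, was near the limit of detection. It had 13, 12 and 5 counts in control libraries and 27, 16 and 30 in AA2P libraries, or 0.586, 0.661 and 0.243 CPM against 1.35, 0.793 and 1.23 CPM. The groups did not overlap, but the highest control and the lowest AA2P library were close. The gene (ENSSSCG00000022395) rose 2.28-fold, or 1.19 ± 0.36 on the log2 scale (SE; edgeR, adjusted p = 0.011), and without control library 3 the log2 fold change was 0.86 and the call was lost (edgeR, adjusted p = 0.065). Its annotated overlaps, ARHGEF15 and RANGRF, rose too, by 0.41 and 0.43 on the log2 scale, and the part of shared reads was not tested.

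SLC25A21, the oxodicarboxylate carrier, was called at 8.92 ± 1.02 and 11.6 ± 1.58 CPM (SD, n = 3) with overlapping groups, since control library 1 at 10.1 CPM lay above AA2P library 3 at 9.94 CPM. The call was lost without control library 2, control library 3 or AA2P library 2 (edgeR, adjusted p = 0.072, 0.078 and 0.11). Its annotated position overlaps PAX9, which fell from 1.202 to 0.372 CPM in the group means. SLC25A11, the 2-oxoglutarate carrier of the malate-aspartate shuttle, had 18 to 49 counts in any library and was not called, at 1.03 ± 0.129 and 1.49 ± 0.476 CPM (SD, n = 3). It overlaps RNF167, which was at 42.3 and 43.1 CPM in the group means. SLC25A34 had 3 to 12 counts in any library and was not tested.

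SLC25A1, the citrate carrier that supplies carbon for sterol and fatty acid synthesis, was not called. It was at 88.6, 80.1 and 82.4 CPM in controls and at 82.6, 92.3 and 82.3 CPM with AA2P, with overlapping groups and a difference of 0.03 ± 0.06 (SE) on the log2 scale. ACLY, which cleaves exported citrate, rose by 0.38 on the log2 scale. The difference between the 2 genes was not tested. With library totals SLC25A1 was called, at 0.20 (edgeR, adjusted p = 0.0092).

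Amino acid, carnitine and related carriers rose in 5 of 8 tested cases and fell in none. The share that rose was 62.5%, against 26.0% of all tested genes, and whether it differs was not tested. The largest change of any member was in SLC25A45, a relative of the carnitine and basic amino acid carriers. It had 8, 5 and 6 counts in control libraries and 34, 36 and 39 in AA2P libraries, or 0.361, 0.276 and 0.291 CPM against 1.70, 1.78 and 1.60 CPM. The AA2P libraries were close to each other and far above the controls, at a level that remained low. The gene (ENSSSCG00000012993) rose 5.35-fold, or 2.42 ± 0.30 on the log2 scale (SE; edgeR, adjusted p = 3.9e-06), and over all 14 alternatives the log2 fold change lay between 2.35 and 2.59.

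SLC25A15, which carries ornithine into the matrix for the urea cycle, was at 21.3, 21.1 and 18.6 CPM in controls and at 35.9, 33.1 and 32.6 CPM with AA2P. The groups were far apart, and the libraries within each were close. The gene (ENSSSCG00000009373) rose 1.66-fold, or 0.74 ± 0.08 on the log2 scale (SE; edgeR, adjusted p = 5.6e-07). Its annotated position overlaps 2 further protein-coding entries of Sscrofa11.1 that carry no gene name.

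Of the glutamate and aspartate carriers, SLC25A22 and SLC25A13 rose and SLC25A12 was not called. SLC25A22, which imports glutamate, was at 35.1, 30.7 and 32.2 CPM in controls and 42.2, 39.2 and 45.6 CPM with AA2P, and rose 1.30-fold (edgeR, adjusted p = 0.00042). SLC25A13, the aspartate-glutamate carrier citrin, rose from 91.6 ± 4.04 to 104 ± 6.18 CPM (SD, n = 3), and missed the threshold without control library 1 or 2 (edgeR, adjusted p = 0.060 and 0.069). Its paralogue SLC25A12, known as aralar, was at 54.6, 52.9 and 52.9 CPM in controls and at 61.7, 55.3 and 49.8 CPM with AA2P. The SLC25A12 groups overlapped, its AA2P libraries spread around the controls, and the share of SLC25A13 within the pair was 63.1% and 65.3% in the group means (exact two-sided permutation p = 0.2).

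SLC25A38, which imports glycine for haem synthesis, rose from 8.02 ± 0.301 to 10.1 ± 1.41 CPM (SD, n = 3). Its log2 fold change was 0.34, or 0.22 without AA2P library 2, where the call was lost (edgeR, adjusted p = 0.15), as it was without control library 1 or 3 (edgeR, adjusted p = 0.062 and 0.080). SLC25A20, which brings acylcarnitines in for fatty acid oxidation, was at 23.8, 22.7 and 22.3 CPM in controls and 25.4, 23.6 and 24.7 CPM with AA2P, and was not called. SLC25A47, known from liver, had 2 to 13 counts in any library and a difference of -0.03 ± 0.50 (SE) on the log2 scale. SLC25A44 and SLC25A48, carriers linked to branched-chain amino acids and choline, had at most 3 and 1 counts and were not tested.

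**Figure D4:**
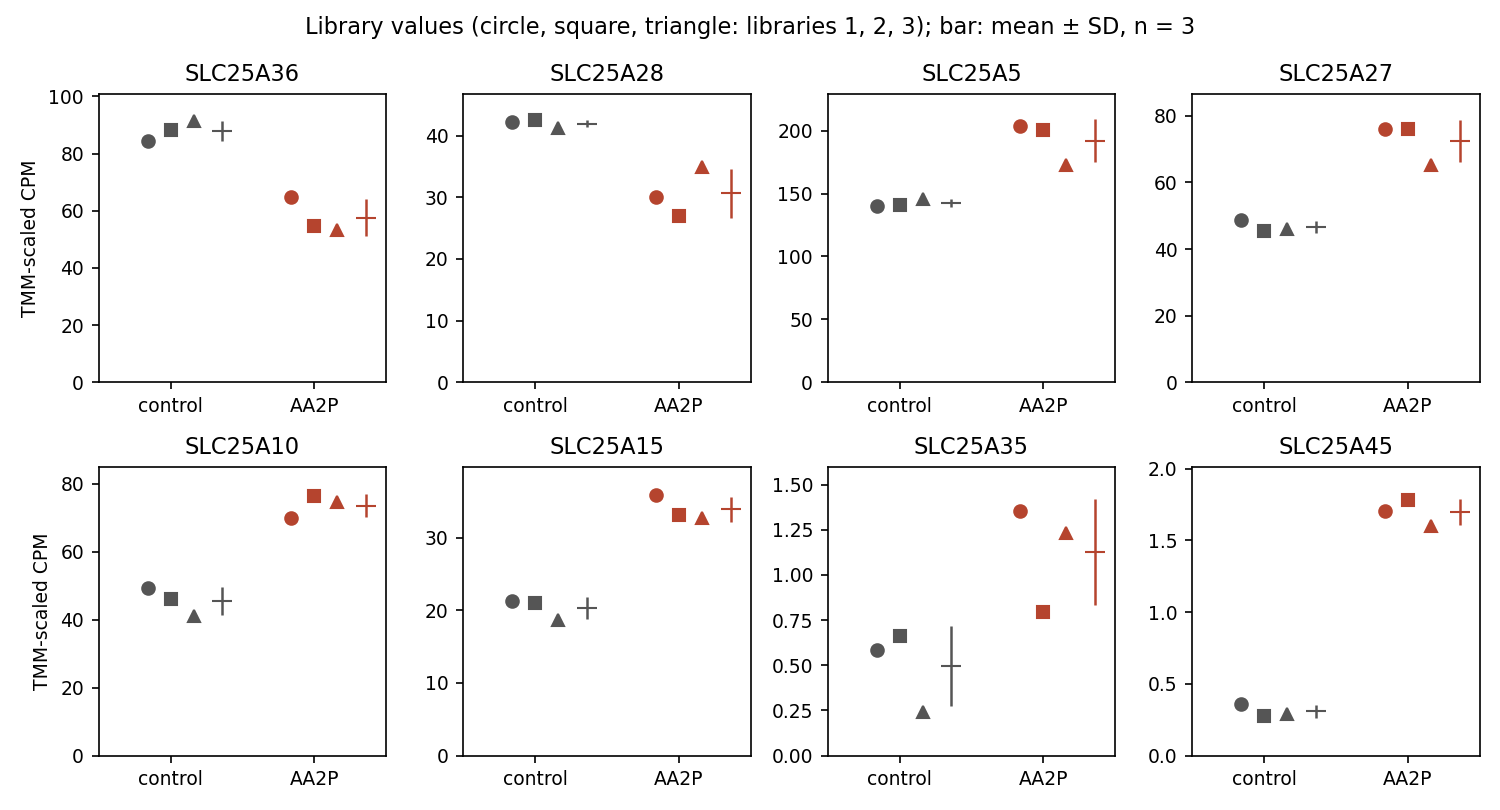
TMM-scaled CPM (vertical axes, from 0) in each control and AA2P library for 8 called members, with the mean and SD beside them. SLC25A36 and SLC25A28 lie lower with AA2P and the other 6 higher, with no overlap in any of the 8; SLC25A35 and SLC25A45 stay below 2 CPM.

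All 3 members that fell are in the group of cofactor, pyrimidine nucleotide, glutathione and iron carriers, where 3 of 8 tested fell and 1 rose. The share that fell is 37.5%, against 26.1% of all tested genes, and the share that rose is 12.5%, against 26.0%. Whether these shares differ was not tested. SLC25A36, which exchanges pyrimidine nucleotides for mitochondrial nucleic acid synthesis, was at 84.4, 88.2 and 91.5 CPM in controls and at 64.9, 54.7 and 53.2 CPM with AA2P. All AA2P libraries were below all controls, library 1 by the least. The gene (ENSSSCG00000036855) fell 1.53-fold, or -0.61 ± 0.07 on the log2 scale (SE; edgeR, adjusted p = 1.7e-06), and with library totals the log2 fold change was -0.44.

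Its paralogue SLC25A33, the other pyrimidine nucleotide carrier, was at 15.01, 13.6 and 13.3 CPM in controls and at 14.3, 15.1 and 12.8 CPM with AA2P and a difference of 0.00 ± 0.10 (SE) on the log2 scale. The share of SLC25A33 in the reads of the pair was 15.1%, 13.3% and 12.7% in controls and 18.0%, 21.7% and 19.4% with AA2P. The groups did not overlap. The exact two-sided permutation p was 0.1, the smallest possible, or 0.257 after Benjamini-Hochberg adjustment over the 18 shares.

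SLC25A28, a mitoferrin that brings iron into mitochondria for haem and iron-sulphur clusters, was at 42.2, 42.5 and 41.3 CPM in controls and at 30.1, 27.1 and 35.0 CPM with AA2P. All AA2P libraries were lower, and library 3 lay nearest to the controls. It fell 1.36-fold, or -0.45 ± 0.08 on the log2 scale (SE; edgeR, adjusted p = 0.00019). With library totals the value was -0.28 and still called.

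SLC25A32, linked to folate and flavin transport, was at 34.4, 36.04 and 33.0 CPM in controls and at 30.7, 29.6 and 29.7 CPM with AA2P. The groups did not overlap, but the fall of 0.20 on the log2 scale was small, and with library totals it was -0.03 and not called (edgeR, adjusted p = 0.73). The call was also lost without control library 2 or AA2P library 2 (edgeR, adjusted p = 0.091 and 0.064). It overlaps DCAF13, a ribosome assembly factor gene, which was at 40.3 and 36.5 CPM in the group means and was not called.

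SLC25A26, which imports S-adenosylmethionine, was at 7.84, 9.53 and 8.30 CPM in controls and 11.97, 11.3 and 8.46 CPM with AA2P, and was not called (edgeR, adjusted p = 0.068). Without AA2P library 3, which lay among the controls, its log2 fold change went from 0.30 to 0.45 and it was called (edgeR, adjusted p = 0.0015). SLC25A26 overlaps LRIG1, which rose from 0.162 to 0.662 CPM in the group means. The glutathione carriers SLC25A39 and SLC25A40 had log2 fold changes of 0.08 and 0.11 and were not called, and SLC25A40 took 36.1% and 36.6% of the reads of that pair in the group means (exact two-sided permutation p = 0.6). SLC25A40 overlaps RUNDC3B, which was not tested, and DBF4, which rose from 37.7 to 42.7 CPM in the group means. The part of shared reads was not tested.

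Members of the outer membrane or with no assigned substrate rose in 2 of 3 cases. The share that rose was 66.7%, against 26.0% of all tested genes, and whether it differs was not tested. SLC25A53, an orphan member, was at 7.21, 5.84 and 6.94 CPM in controls and at 9.36, 10.5 and 9.08 CPM with AA2P, without overlap, and rose 1.44-fold (edgeR, adjusted p = 0.0014). It overlaps TMSB15B and ZCCHC18 in the Sscrofa11.1 annotation, and the part of shared reads was not tested. SLC25A46, an outer membrane protein of mitochondrial dynamics, rose from 40.9 ± 1.91 to 47.0 ± 4.87 CPM (SD, n = 3), although control library 2 at 42.9 CPM lay above AA2P library 3 at 41.5 CPM. That call was lost without control library 1, control library 3, AA2P library 1 or AA2P library 2 (edgeR, adjusted p from 0.093 to 0.13). MTCH1, a carrier homologue of the outer membrane, was at 97.2 ± 3.21 and 98.4 ± 7.25 CPM (SD, n = 3) and was not called.

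SLC25A6 held the largest part of the family's reads in each library. The 44 genes together took 0.255%, 0.254% and 0.245% of the counts in control libraries 1 to 3 and 0.295%, 0.301% and 0.293% in AA2P libraries 1 to 3. After TMM scaling the sums were 2702, 2701 and 2600.2 CPM against 2770.2, 2837 and 2782 CPM. The AA2P libraries were above the controls on both scales, by less on the TMM scale. SLC25A6 alone held 41.3% to 41.9% of the family's counts in controls and 36.7% to 41.8% with AA2P.

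Genes that work with the carriers gave mixed counts, and no list was tested against all genes. Over all 12701 tested genes 52.1% were called, 26.0% higher and 26.1% lower. With library totals 5727 of them rose and 1822 fell. Of 12 tested genes of the import machinery that carries these proteins to the inner membrane, 2 rose and 3 fell, or 41.7% called. Their median log2 fold change was -0.06, against 0.00 for all genes. With library totals 5 rose and 0 fell. The count that fell was 1 without control library 2, control library 3 or AA2P library 2, and the count that rose was 1 without control library 1 or control library 2. At an adjusted p of 0.01 it was 1 higher and 0 lower. The intermembrane chaperone TIMM8B rose by 0.29, while the import receptor TOMM70, which recognises carriers, fell by 0.18 on the log2 scale. TOMM22, the central receptor, rose from 154 to 170 CPM in the group means. None of these 3 reached 1.5-fold.

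Of 18 other mitochondrial membrane transporters and related genes 2 rose and 3 fell, or 10 and 1 with library totals, with a median of 0.02. The called share was 27.8%, against 52.1% of all tested genes. TSPO, an outer membrane protein linked to cholesterol handling, fell from 33.5 to 15.5 CPM in the group means, and SFXN5, a sideroflexin, rose from 1.76 to 4.14 CPM. The anion channel VDAC3 fell by 0.22 on the log2 scale. The pyruvate carrier subunit MPC2 was at 13.7 and 15.5 CPM and was not called.

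Of 12 enzymes of the malate-aspartate and citrate shuttles 6 rose and 3 fell, or 7 and 1 with library totals, with a median of 0.12. The called share was 75%, against 52.1% of all tested genes. ME1, the cytosolic malic enzyme, fell by 0.57 on the log2 scale, and IDH1, the cytosolic isocitrate dehydrogenase, rose by 0.61. Of the aspartate aminotransferases, the mitochondrial GOT2 rose by 0.32, and the cytosolic GOT1 was at -0.09 and not called.

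Of 12 regulators of mitochondrial biogenesis 2 rose and 2 fell, or 6 and 0 with library totals, with a median of -0.01. The called share was 33.3%, against 52.1% of all tested genes. The count that fell was 1 without control library 1, control library 2 or AA2P library 2, and also with the DESeq2 Wald test and at an adjusted p of 0.01. PPARGC1A, a coactivator of mitochondrial genes, rose from 0.333 to 1.58 CPM and ESRRG, an orphan nuclear receptor that works with it, from 2.93 to 6.29 CPM in the group means. PPRC1, a related coactivator, fell from 164 to 141 CPM. TFAM, which packages mitochondrial DNA, was at 54.5 and 57.1 CPM and was not called, and neither was NRF1, with a log2 fold change of 0.02.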

How the data were processed

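RNA sequencing libraries of 3 control and 3 AA2P samples were compared. The authors deposited whole-number read counts per Ensembl pig gene, not normalized, and the submitters' processing notes name bcl2fastq and HISAT2 2.0.5. The read counter, use of strand, gene models and genome build are not given in the sources used here, so overlapping genes and near-identical copies are uncertain and no coordinates are printed. Symbols came from a table of gene names, which matched 13141 of 17670 genes. Overlaps between genes were read from the RefSeq annotation of Sscrofa11.1, where 11 of 43 placed members overlap a protein-coding entry.

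Counts were tested in R 4.3.3 with edgeR 4.0.16 (TMM factors, filterByExpr, quasi-likelihood F test on the group alone, Benjamini-Hochberg adjustment over 12701 genes, threshold 0.05), after a test on simulated data. The SE of a log2 fold change is its size divided by the root of F. Members with a call, at least 1.5-fold and a mean of at least 1 CPM in the higher group are given in every library. Related genes are described whole where they had a row, and companion lists by counts and up to 3 called genes. GOT2, GOT1, MPC2, TFAM, NRF1, the marker genes named, and library values of members under 1.5-fold were added after the values were seen. Members, lists and rules were chosen with earlier results of these data known. Alternatives were DESeq2 size factors, library totals, 2 other filters, the DESeq2 1.42.0 Wald test, limma-voom (limma 3.58.1), a replicate block, each library left out and a threshold of 0.01. The values of 1 tested member are not reported here, and the counts over the family include it.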

Additional observations from a re-analysis of the deposited data

How the results depend on the processing

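When libraries were scaled by their totals, 5727 of all tested genes were called higher and 1822 lower, 29 members were called higher, and the companion genes gave 28 higher and 2 lower. SLC25A6 turned from -0.03 to 0.14. At an adjusted p of 0.01, 10 members were called higher and 6 companion genes lower. Leaving out each library in turn gave 10 to 16 members higher and 7 to 13 companion genes lower, against 16 and 11. With the replicate number as a block 15 members were called higher and 3 lower, against 16 and 3, and the import genes gave 1 higher and 2 lower and the biogenesis regulators 2 higher and 1 lower. Libraries with the same number had correlations of -0.04, -0.02 and -0.06 between their deviations from the group means. Control library 3 with AA2P library 1 gave 0.105, control 1 with AA2P 2 0.0702 and control 2 with AA2P 3 0.0757. The other combinations were negative. With 3 libraries per group, each centred on its group mean, these values cannot tell whether the numbers pair the samples. Of the 19 called members 11 had the same call and direction in every alternative, as did 5 of the 6 changed at least 1.5-fold, the exception being SLC25A35, which was not called without control library 3 or at an adjusted p of 0.01 and which the filter of 1 CPM in 3 libraries removed. Of the 20 members not called, 7 were called in no alternative. SLC25A35, SLC25A45, SLC25A47 and SLC25A11 had fewer than 50 counts in each library, which limits their precision.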
